A study of Arabidopsis thaliana with 6 samples.

Results

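The 31 genes described here build and run the mitotic machinery of Arabidopsis thaliana. They comprise 9 B-type cyclins, 8 A-type cyclins, the cyclin-dependent kinase CDKA;1, 4 B-type cyclin-dependent kinases, 3 Aurora kinases, 2 CDC20 activators, the spindle protein TPX2 and the cytokinesis genes KNOLLE, HINKEL and MAP65-3. They were picked by locus identifier out of 32833 loci in each count table, not by a cutoff on a measured value. Earlier results of these data were known when they were chosen. By the labels, RNA came from inflorescence meristems, dissected from stems 15 cm tall with flowers trimmed off up to stage 3 to 4. The 3 libraries labelled VGD1 carried the reporter erTurquoise and the pectin methylesterase VGD1, both driven by the promoter of the stem cell gene CLV3 through the hormone-gated activator GR-LhG4. The 3 control libraries carried erTurquoise alone under the same promoter. Both groups were sprayed with dexamethasone, given as 30 µM in one label and 30 mM in another, and harvested after 48 hours by one label or 72 hours by another. The activation is meant for the few stem cells, whereas the RNA is that of all the dissected tissue. A change confined to CLV3-expressing cells would therefore be diluted. The RNA also held transcripts of tapetum and anther marker genes, described below.

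Entry into mitosis is driven by cyclin-dependent kinases bound to A- and B-type cyclins. Transcripts of the B-type cyclins accumulate in late G2 and M phase. Their proteins are destroyed when the anaphase-promoting complex is switched on by CDC20. Aurora kinases and TPX2 act at the spindle and the dividing chromosomes. The syntaxin KNOLLE, the kinesin HINKEL and the microtubule bundler MAP65-3 then build the cell plate that separates the daughter cells. Many of these plant genes are controlled by MYB3R transcription factors, which bind the mitosis-specific activator (MSA) element, whose core is AACGG. In the shoot meristem such transcripts are abundant because many of its cells divide, while any single moment finds them in only some cells. In bulk tissue a smaller number of dividing cells and less of a transcript per cell cannot be told apart.

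Total counts were 18432365 to 19394881 in the libraries labelled VGD1 and 6638772 to 24437872 in the controls, with control replicate 3 the shallowest. VGD1 itself (AT2G47040) was not higher in the group named for it, at 6.59, 7.92 and 7.11 counts scaled to library size (CPM) in the libraries labelled VGD1 against 11.4, 12.7 and 4.80 CPM in the controls (edgeR adjusted p = 0.372). Every direction given here is therefore that of the libraries as labelled. Of the defining genes of the tissue, STM, CLV1 and WUS were detected in all 6 libraries. CLV3 had 3, 8 and 11 counts in the libraries labelled VGD1 and 0 in each control, where a count of 0 allows up to 3 counts. Nothing in the labels ties the replicates to separate cultures or plants, so a p-value here reflects only how much these libraries vary, which may be technical.

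The MSA core was looked for as AACGG on either strand, that is AACGG or CCGTT, which cannot overlap each other, in the 250 bases before the annotated start of each gene (RefSeq annotation, build TAIR10.1). It was present in 16 of the 31 windows (51.6%), against 22.2% of the windows of 19291 tested genes, and 11 of the 31 windows held 2 or more copies, against 4.21% of the tested windows. B-type cyclins of the CYCB1 and CYCB2 groups carried the most, with 3 or 4 copies in CYCB1;1, CYCB1;2, CYCB1;3, CYCB2;1, CYCB2;2 and CYCB2;3 and none in CYCB1;4 and CYCB2;4. A match is a string of letters and not a shown binding site, and a window without it may hold other forms of the element. The windows of 4 genes are printed below from 5′ to 3′ with the core in capitals, because these genes span the range from 4 copies to 0. CYCB1;1 is the usual marker of cells in G2 and M (chr4:17624309-17624558, minus strand, 3 copies). CYCB1;2 held the most copies (chr5:1861704-1861953, minus strand, 4 copies). KNOLLE had the highest level of all 31 genes (chr1:2711001-2711250, minus strand, 1 copy). CDKA;1, which is transcribed through the whole cell cycle, held none (chr3:18071204-18071453, plus strand).
CYCB1;1: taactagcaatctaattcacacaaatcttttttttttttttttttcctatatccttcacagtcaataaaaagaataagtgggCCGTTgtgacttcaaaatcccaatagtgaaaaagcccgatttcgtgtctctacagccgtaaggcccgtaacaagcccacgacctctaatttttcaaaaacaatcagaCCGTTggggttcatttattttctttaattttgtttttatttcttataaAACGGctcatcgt
CYCB1;2: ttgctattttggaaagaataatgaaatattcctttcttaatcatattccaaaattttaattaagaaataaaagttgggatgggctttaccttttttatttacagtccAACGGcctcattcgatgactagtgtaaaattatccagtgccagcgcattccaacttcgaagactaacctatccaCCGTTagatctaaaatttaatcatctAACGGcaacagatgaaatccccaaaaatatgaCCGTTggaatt
KNOLLE: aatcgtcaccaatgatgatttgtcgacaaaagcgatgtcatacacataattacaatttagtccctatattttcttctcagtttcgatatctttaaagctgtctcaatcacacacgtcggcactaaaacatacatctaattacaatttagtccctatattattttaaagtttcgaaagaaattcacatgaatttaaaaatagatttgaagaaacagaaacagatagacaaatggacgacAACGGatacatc
CDKA;1: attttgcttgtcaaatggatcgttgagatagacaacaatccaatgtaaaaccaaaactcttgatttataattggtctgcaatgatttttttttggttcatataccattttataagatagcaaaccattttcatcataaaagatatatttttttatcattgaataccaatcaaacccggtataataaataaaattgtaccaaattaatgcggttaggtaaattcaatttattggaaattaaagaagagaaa

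None of the 31 mitotic genes passed the test between the libraries labelled VGD1 and the controls. All 31 passed the filter on low counts, with 36 to 2670 counts per library, and 0 were called by the edgeR quasi-likelihood test at an adjusted p under 0.05, with a smallest adjusted p of 0.509 for CYCA2;1. DESeq2 and limma-voom called 0 as well, and 0 of the 31 reached an unadjusted p under 0.05 in edgeR, as 13.6% of all tested genes did. Over all 19719 tested genes, 0.416% were called (82 genes), 0.101% higher and 0.314% lower in the libraries labelled VGD1. That count was 202, 85 and 45 without replicates 1, 2 and 3 labelled VGD1 and 12, 4 and 189 without control replicates 1, 2 and 3, whereas the count among the mitotic genes was 0 in each of these fits. The fitted log2 fold changes of libraries labelled VGD1 over controls ran from -0.20 for CYCA3;1 to 0.47 for CYCA2;1, 17 above 0 and 14 below. The number above 0 was 20 when scaled by library totals alone, 12 when all libraries were thinned to the depth of the shallowest, 22 without replicate 1 and 7 without replicate 3 labelled VGD1, so the balance of signs was not stable. Their median was 0.007, beside -0.00038 for all tested genes, and the median of their absolute values was 0.075, beside 0.142. The 95% intervals excluded a change of 1.5-fold in either direction for 27 of the 31 genes, as they did for 60.0% of all tested genes, and excluded a 2-fold change for 30. The 4 genes with wider intervals were the A-type cyclins CYCA2;1, CYCA2;2, CYCA2;4 and CYCA3;1, and a p that misses the threshold does not show that a gene was the same in both groups. AUR2 was the one gene whose groups did not overlap in CPM, 3.23% of the 31, against 17.2% of all tested genes, 8.17% higher and 9.02% lower.

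**Figure D1:**
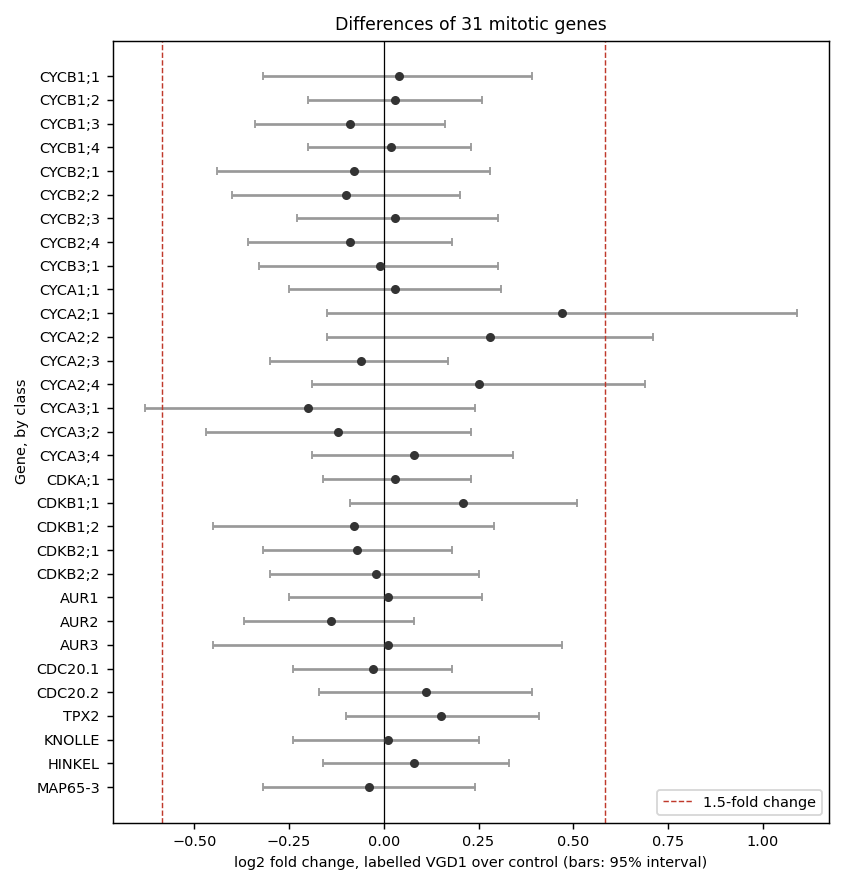
Fitted log2 fold change (x axis) of libraries labelled VGD1 over controls for the 31 genes, grouped by class. Points are edgeR estimates from 3 libraries a group, bars are 95% intervals and dashed lines mark a 1.5-fold change. Every bar crosses 0, and 4 bars, all of A-type cyclins, reach past a dashed line.

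B-type cyclins partner the mitotic kinases from late G2 to anaphase, and none of the 9 passed the test. The 4 CYCB1 genes together averaged 189 ± 15.1 CPM in the libraries labelled VGD1 and 189 ± 20.8 CPM in the controls (SD, n = 3 each). CYCB1;1 (AT4G37490) stood at 31.8, 28.9 and 38.2 CPM in the libraries labelled VGD1, against 28.3, 29.6 and 41.7 CPM in the controls. The highest and the lowest of the 6 values were both controls, so the groups overlapped fully (log2 fold change 0.04, 95% interval -0.32 to 0.39, edgeR adjusted p = 0.953). CYCB1;2 (AT5G06150), the most abundant B-type cyclin, stood at 97.2, 103 and 116 CPM in the libraries labelled VGD1, against 93.9, 103 and 115 CPM in the controls (log2 fold change 0.03, 95% interval -0.20 to 0.26). Its share of the length-normalised CYCB1 level was 54.2 ± 1.09% in the libraries labelled VGD1 and 53.5 ± 0.78% in the controls (SD, n = 3 each). CYCB1;3 stood at 16.8 to 18.1 CPM in the libraries labelled VGD1 and 18.1 to 19.2 CPM in the controls, where the groups touched at their edges (edgeR adjusted p = 0.795). CYCB1;4 ranged over 32.3 to 33.7 CPM in the libraries labelled VGD1 and 30.8 to 35.4 CPM in the controls.

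The 4 CYCB2 genes summed to 105.5 ± 13.4 CPM in the libraries labelled VGD1 and 111 ± 7.68 CPM in the controls (SD, n = 3 each). CYCB2;4 (AT1G76310) stood at 41.9, 40.1 and 53.9 CPM in the libraries labelled VGD1, against 46.5, 47.5 and 51.3 CPM in the controls. All 3 control values of this cyclin lay inside the range of the libraries labelled VGD1. CYCB2;3 (AT1G20610) stood at 28.0, 26.0 and 32.4 CPM in the libraries labelled VGD1, against 25.9, 30.1 and 28.5 CPM in the controls. CYCB2;1 and CYCB2;2 ranged over 8.07 to 10.3 and 20.23 to 24.4 CPM in the libraries labelled VGD1, against 9.22 to 10.6 and 20.6 to 27.0 CPM in the controls. The smallest adjusted p of the CYCB2 genes was 0.806 in edgeR. CYCB3;1 (AT1G16330), the single member of its group here, stood at 19.7, 17.5 and 20.05 CPM in the libraries labelled VGD1, against 17.9, 17.7 and 24.3 CPM in the controls, with control replicate 3 the highest (edgeR adjusted p = 0.98).

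A-type cyclins act from S phase to early mitosis, and the 3 largest estimates among the 31 genes belonged to them. CYCA1;1 (AT1G44110) stood at 40.6, 45.3 and 51.9 CPM in the libraries labelled VGD1, against 44.3, 40.5 and 52.2 CPM in the controls, with the same lowest and highest values in both groups to within 1 CPM (edgeR adjusted p = 0.95). CYCA2;1 (AT5G25380), the least abundant of the 31 genes per length, stood at 3.70, 6.04 and 5.71 CPM in the libraries labelled VGD1, against 3.72, 3.06 and 5.40 CPM in the controls. Replicate 1 labelled VGD1 lay within the controls, and the estimate of 0.47 on the log2 scale carried an interval from -0.15 to 1.09, so a 2-fold rise lies inside it. CYCA2;2 (AT5G11300) stood at 8.99, 8.12 and 10.6 CPM in the libraries labelled VGD1, against 8.64, 7.45 and 5.40 CPM in the controls (log2 fold change 0.28, interval -0.15 to 0.71, edgeR adjusted p = 0.574). Its lowest value came from control replicate 3, where it rests on 36 counts. CYCA2;4 (AT1G80370) stood at 28.3, 18.3 and 27.9 CPM in the libraries labelled VGD1, against 19.1, 19.1 and 27.0 CPM in the controls. Each group of this cyclin was split, with 2 high and 1 low library labelled VGD1 and 1 high and 2 low controls (edgeR adjusted p = 0.639).

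CYCA2;3 (AT1G15570), a cyclin that restrains the switch from division to endoreduplication, stood at 45.5, 48.9 and 51.6 CPM in the libraries labelled VGD1, against 45.2, 53.1 and 55.2 CPM in the controls (log2 fold change -0.06, interval -0.30 to 0.17). Of the CYCA3 cyclins, which are linked to S phase, CYCA3;2 (AT1G47210) stood at 22.0, 31.4 and 33.0 CPM in the libraries labelled VGD1, against 28.2, 32.1 and 34.5 CPM in the controls, and its low value was replicate 1 labelled VGD1. CYCA3;4 (AT1G47230) stood at 31.2, 25.7 and 33.5 CPM in the libraries labelled VGD1, against 28.7, 28.7 and 28.3 CPM in the controls. The 3 controls of CYCA3;4 fell inside the range of the libraries labelled VGD1 (edgeR adjusted p = 0.847). CYCA3;1 ranged over 11.4 to 14.0 CPM in the libraries labelled VGD1 and 12.1 to 21.0 CPM in the controls, where the highest value was control replicate 3 (log2 fold change -0.20, interval -0.63 to 0.24).

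Of the kinases that these cyclins activate, CDKA;1 (AT3G48750), the kinase used throughout the cycle, stood at 73.7, 81.4 and 70.9 CPM in the libraries labelled VGD1, against 72.5, 73.0 and 75.6 CPM in the controls. It was among the steadiest of the 31 genes, with a log2 fold change of 0.03 and an interval from -0.16 to 0.23. The plant-specific B-type kinases are made around G2 and M, and CDKB2;1 (AT1G76540) was the most abundant of them. It stood at 76.2, 94.8 and 102 CPM in the libraries labelled VGD1, against 94.1, 92.4 and 100.5 CPM in the controls, with replicate 1 labelled VGD1 the lowest of 6 (edgeR adjusted p = 0.857). CDKB2;2 (AT1G20930) stood at 36.5, 43.0 and 46.8 CPM in the libraries labelled VGD1, against 45.7, 37.8 and 45.6 CPM in the controls. CDKB1;1 (AT3G54180) stood at 25.9, 28.6 and 35.0 CPM in the libraries labelled VGD1, against 24.2, 25.4 and 29.1 CPM in the controls, and the groups overlapped (log2 fold change 0.21, interval -0.09 to 0.51, edgeR adjusted p = 0.55). CDKB1;2, its close relative, lay at 12.7 to 17.5 CPM in the libraries labelled VGD1 and 14.5 to 19.6 CPM in the controls, with an estimate of the other sign (-0.08). Of the length-normalised CDKB2 level, CDKB2;1 made up 68.7 ± 0.60% in the libraries labelled VGD1 and 69.4 ± 1.84% in the controls (SD, n = 3 each).

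Aurora kinases phosphorylate histone H3 and spindle proteins, and AUR1 and AUR2 also take part in placing the division plane. AUR2 (AT2G25880) stood at 25.3, 24.2 and 24.4 CPM in the libraries labelled VGD1, against 26.2, 26.9 and 28.9 CPM in the controls, so on this scale every library labelled VGD1 lay below every control. The TPM values of AUR2, which carry no TMM factors (edgeR's correction for library composition), overlapped, at 17.1 to 18.9 TPM in the libraries labelled VGD1 and 17.97 to 20.8 TPM in the controls. The difference was small, with a log2 fold change of -0.14 and an interval from -0.37 to 0.08, and did not pass the test (edgeR adjusted p = 0.597, and 0.585 to 0.842 over the alternatives). AUR1 (AT4G32830) stood at 31.6, 34.1 and 39.6 CPM in the libraries labelled VGD1, against 35.1, 36.6 and 32.2 CPM in the controls, with its groups interleaved (edgeR adjusted p = 0.992). AUR3 lay at 9.58 to 13.9 CPM in the libraries labelled VGD1 and 9.03 to 13.9 CPM in the controls. TPX2 (AT1G03780), which nucleates spindle microtubules, stood at 77.5, 67.9 and 80.4 CPM in the libraries labelled VGD1, against 61.6, 64.6 and 79.6 CPM in the controls. The high control replicate 3 made the groups of TPX2 overlap (log2 fold change 0.15, interval -0.10 to 0.41, edgeR adjusted p = 0.625).

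CDC20 proteins switch on the anaphase-promoting complex, and the CDC20.1 and CDC20.2 genes carry neighbouring locus numbers and are close copies, so reads could be shared between them. Together they reached 163 ± 12.7 CPM in the libraries labelled VGD1 and 162 ± 16.0 CPM in the controls (SD, n = 3 each). CDC20.1 (AT4G33270) stood at 106, 92.4 and 110.2 CPM in the libraries labelled VGD1, against 101, 104 and 112 CPM in the controls. CDC20.2 (AT4G33260) stood at 58.2, 57.4 and 65.0 CPM in the libraries labelled VGD1, against 47.5, 55.0 and 67.3 CPM in the controls. Neither passed the test, and the values of each gene and of the sum overlapped between the groups.

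The cytokinesis genes did not pass the test either. KNOLLE (AT1G08560), the syntaxin of the cell plate, stood at 107, 113 and 134 CPM in the libraries labelled VGD1, against 113, 111 and 130.3 CPM in the controls (log2 fold change 0.01, interval -0.24 to 0.25, edgeR adjusted p = 0.988). HINKEL (AT1G18370), the kinesin that starts the kinase cascade at the phragmoplast, stood at 93.4, 93.6 and 115 CPM in the libraries labelled VGD1, against 89.5, 91.2 and 106 CPM in the controls (edgeR adjusted p = 0.802). In each group of KNOLLE and HINKEL, replicate 3 stood well above replicates 1 and 2, which were close to each other. MAP65-3 (AT5G51600), which bundles the microtubules of the phragmoplast, lay at 55.1 to 64.8 CPM in the libraries labelled VGD1 and 56.5 to 76.2 CPM in the controls, where replicate 3 was again the highest.

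Levels were compared between genes on a scale that corrects for exon length and depth (TPM). Over the 6 libraries the 31 genes spanned 4.03 TPM (CYCA2;1) to 145 TPM (KNOLLE). KNOLLE, at 148 ± 17.7 TPM in the libraries labelled VGD1 and 142 ± 16.2 TPM in the controls (SD, n = 3 each), was the highest. CDKB2;1 followed at 115 ± 15.1 TPM in the libraries labelled VGD1 and 117 ± 7.80 TPM in the controls, and CYCB1;2 at 100.2 ± 8.83 TPM in the libraries labelled VGD1 and 95.3 ± 12.3 TPM in the controls. CDC20.1 and CDKA;1 came next with means of 84.7 and 84.5 TPM over all libraries. CYCB1;1, the common reporter of dividing cells, was in the middle of the range, at 35.1 ± 5.43 TPM in the libraries labelled VGD1 and 34.1 ± 8.44 TPM in the controls. CYCB2;1 (10.04 TPM), CYCA2;2 (7.27 TPM) and CYCA2;1 were the lowest over all libraries. Several neighbours in this order lay within the spread of each other, so their ranks are not settled. Among them were CDC20.1 and CDKA;1, CDKB2;2 and CDC20.2 (51.9 and 51.3 TPM), and CYCA1;1 and TPX2 (42.7 and 42.2 TPM). CDC20.1 made up 61.2 ± 1.51% of the CDC20 level in the libraries labelled VGD1 and 63.5 ± 2.79% in the controls (SD, n = 3 each).

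**Figure D2:**
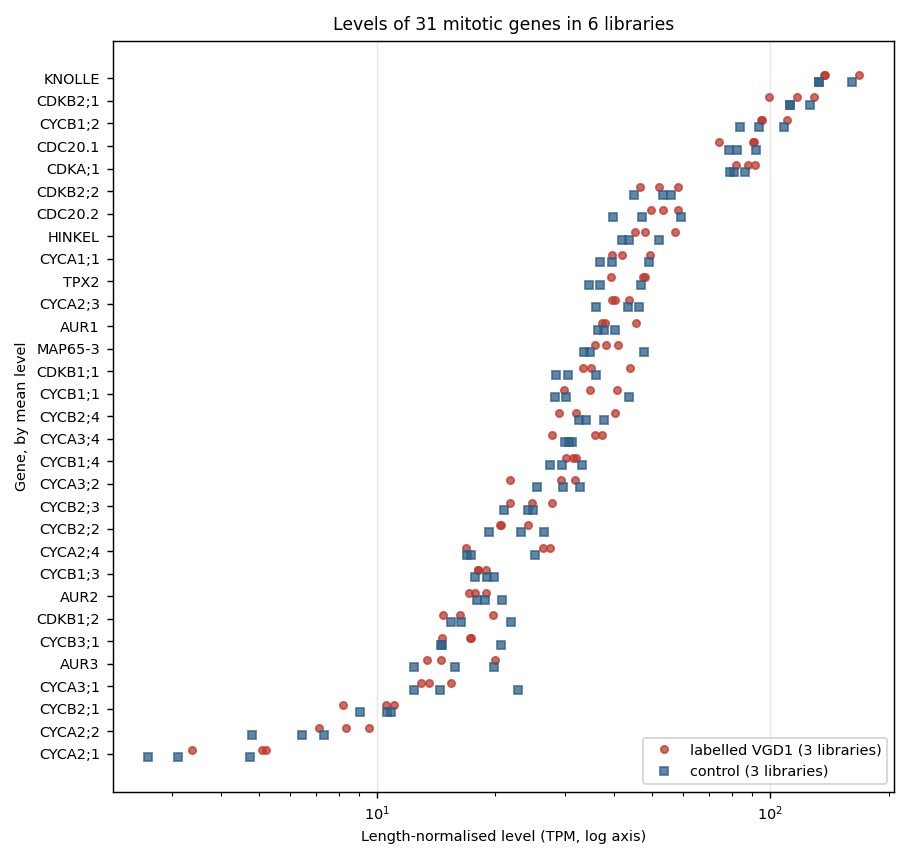
Length-normalised level (TPM, log axis) of each gene in each library, with genes ordered by their mean over the 6 libraries. Circles are the 3 libraries labelled VGD1 and squares the 3 controls. The symbols of the groups lie among each other for each gene, from KNOLLE at the top to CYCA2;1 at the bottom.

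Most of the 31 genes, though not all, had their highest level within each group in replicate 3. Their summed level was 1279, 1309 and 1495 CPM in replicates 1, 2 and 3 labelled VGD1 and 1274, 1310 and 1499 CPM in control replicates 1, 2 and 3. Replicate 3 was the highest of its group for 26 of the 31 genes in the libraries labelled VGD1 and for 25 in the controls, and in both groups at once for 21 genes (67.7%), against 15.2% of all tested genes. Replicate 3 exceeded the mean of the other replicates of its group by a median of 0.24 (log2) over the 31 genes in the libraries labelled VGD1 and 0.22 in the controls, beside 0.01 and -0.01 over all tested genes. The genes with the AACGG core showed it at 0.23 in each group, and those without it at 0.26 in the libraries labelled VGD1 and 0.17 in the controls. The largest opposite value was that of CYCA2;2, with 0.29 in the libraries labelled VGD1 and -0.53 in the controls. AUR1 had 0.27 in the libraries labelled VGD1 and -0.15 in the controls, and CYCA3;4 had 0.24 and -0.02 in the same groups. CDKA;1 had -0.13 in the libraries labelled VGD1 and 0.05 in the controls, and AUR2 had -0.02 in the libraries labelled VGD1 and 0.12 in the controls. The coefficient of variation over the 6 libraries had a median of 11.3% for the 31 genes, from 4.71% for CYCB1;4 to 27.3% for CYCA2;1, beside 13.5% for all tested genes. Control replicate 3 is also the shallowest library, and the part of depth in this difference was not tested.

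**Figure D3:**
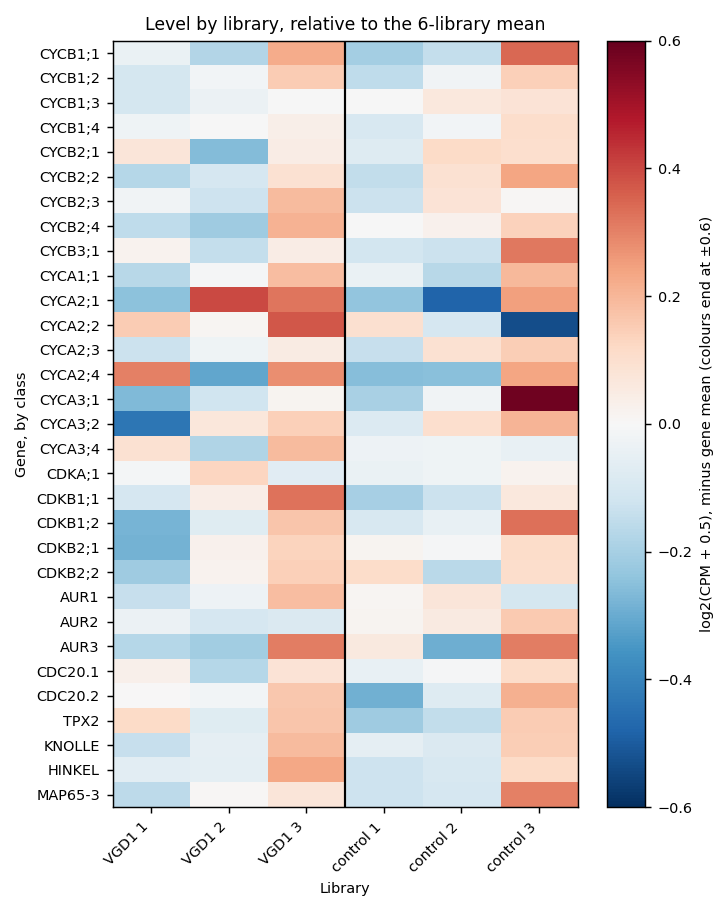
Level of each gene in each library as log2(CPM + 0.5) minus its mean over the 6 libraries, with libraries labelled VGD1 left of the line and controls right of it. Red is above and blue below the gene's mean. The columns of replicate 3 in both groups are mostly red, with 21 of 31 genes highest there in both groups, and CDKA;1 stays near its mean.

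Markers of other tissues were set beside the mitotic genes. Summed photosynthetic markers were 9516 to 11870 CPM in the libraries labelled VGD1 and 10507 to 15114 CPM in the controls, with 9 of 9 estimates below 0. Vascular markers were 126 to 205 CPM in the libraries labelled VGD1 and 203 to 279 CPM in the controls, with 8 of 8 estimates below 0, or 7 of 8 when scaled by library totals alone. Tapetum and anther markers were 363 to 1100.3 CPM in the libraries labelled VGD1 and 1109 to 1299 CPM in the controls, with 10 of 11 estimates below 0. Per length, LAP6 and ACOS5 averaged 205 and 196 TPM over all libraries, above KNOLLE at 145 TPM. A7 and MS2 averaged 125 and 122 TPM, whereas TDF1 and DYT1 were low, at 7.17 and 5.76 TPM. Transcripts of anther tissue were thus abundant in libraries labelled as inflorescence meristem. Of these 28 markers 0 passed the edgeR test, and 0 were at 0 in a whole group. In edgeR, 6 of 9 photosynthetic, 5 of 8 vascular and 3 of 11 tapetum and anther markers had an unadjusted p under 0.05. Of all tested genes, 13.6% did. DESeq2 called 4 of the 28 markers lower in the libraries labelled VGD1, beside 430 genes called over all genes in either direction. These markers were the photosynthetic CA1 and the vascular SUC2, XCP1 and IRX3. Without replicate 1 labelled VGD1, edgeR called 4 tapetum and anther markers lower (MYB80, LAP5, LAP6 and ACOS5), beside 202 genes over all genes. Without control replicate 3 it called 3 markers lower (A7, CA1 and SUC2), beside 189 genes over all genes. Meiosis genes, which share cyclins and checkpoint parts with mitosis, summed to 46.8 to 67.9 CPM in the libraries labelled VGD1 and 52.6 to 58.6 CPM in the controls. In replicate 3 of the libraries labelled VGD1 and of the controls, the photosynthetic sum was 10240 and 10507 CPM. In the same libraries the vascular sum was 164 and 203 CPM, and the tapetum and anther sum 549 and 1109 CPM. Among libraries labelled VGD1, replicate 1 had the lowest photosynthetic and vascular sums (9516 and 126 CPM), and among controls replicate 3 had the lowest. The part of such tissue in the levels of the mitotic genes was not tested.

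The genes around the mitotic machinery were examined in 6 lists with 77 genes, of which 76 were tested. Of the 76 genes, 5 had an unadjusted p under 0.05 in edgeR, beside 13.6% of all tested genes. The edgeR test called 0 of the 76 in either direction, as did DESeq2 and limma-voom, and the smallest edgeR adjusted p was 0.208. Their median log2 fold change was 0.044, with 48 above 0 and 28 below. The 2 smallest p-values were those of inhibitors of cyclin-dependent kinases, a list of 13 genes with 12 tested, 8 of them below 0, and a median of -0.20. KRP2, an inhibitor of the KRP family, stood at 21.9, 22.3 and 19.1 CPM in the libraries labelled VGD1, against 27.2, 25.9 and 29.1 CPM in the controls, without overlap (log2 fold change -0.36, interval -0.61 to -0.11, unadjusted p = 0.00886 and edgeR adjusted p = 0.208). KRP1, of the same family, stood at 2.30, 0.937 and 1.08 CPM in the libraries labelled VGD1. The controls stood at 2.66, 3.31 and 3.90 CPM, also without overlap (log2 fold change -1.10, interval -1.92 to -0.29, edgeR adjusted p = 0.23). KRP1 rests on low counts, 18 to 80 per library. In this list the groups did not overlap for 2 of 13 genes, beside 17.2% of all tested genes. Over the alternatives the adjusted p ran from 0.206 to 0.578 for KRP2 and from 0.0731 to 0.671 for KRP1, so neither was called in any.

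Of the 11 G2/M regulators, among them the MYB3R factors, 4 lay above 0 and 7 below, or 7 above and 4 below when scaled by library totals alone. TSO1, a partner of MYB3R1, stood at 103, 101 and 114 CPM in the libraries labelled VGD1, against 86.2, 92.3 and 102 CPM in the controls (edgeR adjusted p = 0.413). MYB3R3, a repressor of mitotic genes, had a log2 fold change of 0.22 (edgeR adjusted p = 0.58). Of the 7 genes that activate or bind the kinases, 3 lay above 0, or 4 when scaled by library totals alone. CDKD;2, a CDK-activating kinase, had a log2 fold change of 0.30 (edgeR adjusted p = 0.373) and its relative CDKD;1 one of -0.22 (0.757). Of 17 genes of the anaphase-promoting complex and its regulators, 11 lay above 0. The subunit gene APC2 stood at 27.9, 27.3 and 27.6 CPM in the libraries labelled VGD1, against 22.0, 24.6 and 24.0 CPM in the controls (edgeR adjusted p = 0.352), and the regulator SAMBA at 7.64, 7.76 and 8.19 CPM in the libraries labelled VGD1, against 9.22, 10.2 and 11.1 CPM in the controls (edgeR adjusted p = 0.367). The groups did not overlap for 4 genes of this list, of which APC2, APC7 and UVI4 were higher and SAMBA was lower in the libraries labelled VGD1, beside 17.2% of all tested genes. APC7, another subunit gene, had a log2 fold change of 0.20 (edgeR adjusted p = 0.434) and UVI4, an inhibitor of the complex, one of 0.24 (0.532). The 5 genes of the spindle checkpoint and chromosomal passenger list lay above 0, led by the checkpoint genes MAD1 and MAD2, each with a log2 fold change of 0.13 (edgeR adjusted p = 0.665 and 0.707). Of 24 further cytokinesis genes, 21 lay above 0 under each scaling, with a median of 0.08, or 0.11 when scaled by library totals alone. The signs of single genes in these lists were not all stable over the 15 alternatives. RUK ran from -0.14 to 0.12 and ANP2 from -0.18 to 0.10, and WYR of the chromosomal passenger list from -0.05 to 0.17. TES, ANP1, ANP3, MKK6, MPK4, SYP71, PAKRP1L, POK1 and CSLD5 of the cytokinesis list also fell below 0 under some alternative. NPSN11 and EDE1, below 0 in the reported fit, rose above it under some alternative. Other genes, such as MAP65-4 (0.07 to 0.20), stayed above 0. SNAP33, the partner of KNOLLE in membrane fusion, had a log2 fold change of 0.28 (edgeR adjusted p = 0.391) and the kinase TIO one of 0.25 (0.447).

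**Figure D4:**
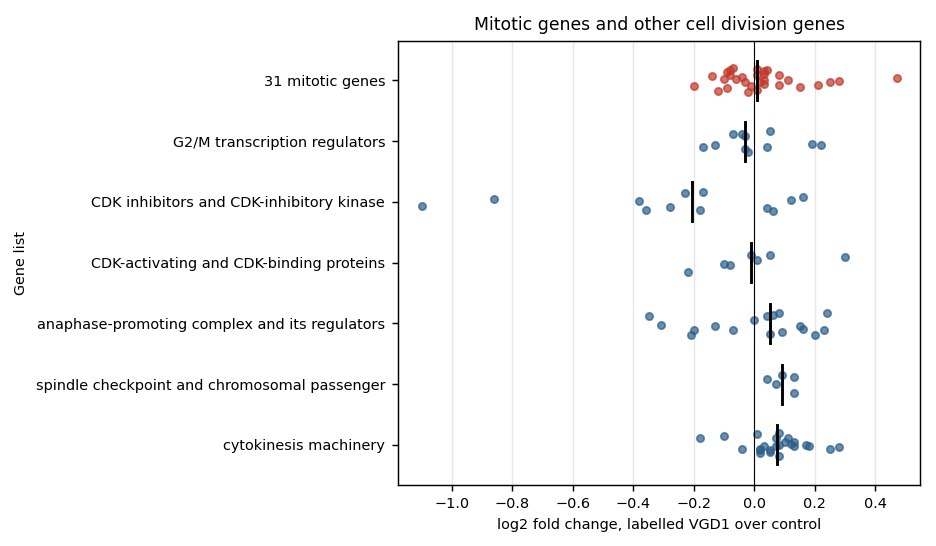
Fitted log2 fold change (x axis) of libraries labelled VGD1 over controls for the 31 mitotic genes (top row) and for the tested genes of 6 other cell division lists. Each point is a gene, scattered vertically for legibility, and black bars are medians. The mitotic genes lie between -0.20 and 0.47, and the lowest point is the kinase inhibitor KRP1 at -1.10.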

How the data were processed

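The authors deposited 1 table of raw counts of reads per gene for each of 6 poly(A)-selected libraries. Per the file headers, these came from alignments by RNA STAR. The submitters' processing notes list TAIR10 and DESeq2 but give neither a role nor a version. How reads were counted, with which strand setting, and whether both mates of a pair were counted is not stated. In the deposited counts of at least 20, 68.3% to 75.9% per library were even numbers, and whether a fragment was counted more than 1 time was not tested. Of the 31 genes, 11 overlap a gene on the other strand. No library was a copy of another: the chi-square per gene between libraries was 7.79 or more. The lowest value was that of replicate 3 labelled VGD1 with control replicate 3, a pair of different groups. The lowest within a group was 8.82, for control replicates 2 and 3. Control replicate 3 is the shallowest library, and the part of depth in these values was not tested.

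Names, exon lengths and upstream windows came from RefSeq's TAIR10.1 genome and annotation. The count tables hold no coordinates, so no positions of different builds were mixed. SCL28, SMR2, MPS1, BORR and A9 were left out of the lists because the annotation does not give the loci these names.

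CPM carry TMM factors. Libraries labelled VGD1 were compared with controls in edgeR 4.0.16 with R 4.3.3 (filterByExpr with a minimum count of 10 and minimum total of 15, robust glmQLFit without the legacy mode, two-sided quasi-likelihood F test, Benjamini-Hochberg adjustment over 19719 genes, threshold 0.05). Intervals cover the spread between libraries. On simulated data for 3 against 3 libraries, the test called 26.5% of 196 genes changed 1.5-fold, 72.3% of 195 changed 2-fold and 91.2% of 193 changed 4-fold, with 16 to 18 false calls. Alternatives were RLE factors, library totals, no filter, 1 CPM in 3 libraries, DESeq2 1.42.0, limma-voom (limma 3.58.1), the legacy dispersion, thinning to the shallowest library, the replicate number as a block and leaving out each library.

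The members and lists were chosen with earlier results of these data known. Values in every library are given for genes called, genes without overlap, the 2 most abundant of each class and, beyond that rule, CYCA2;1, CYCA2;2 and CDKB1;1, which were added after their values were seen. From each list the called genes, or else the 2 with the smallest p, are named. APC7, UVI4 and the markers called under an alternative were named after their values were seen. So were the list genes named for their signs over the alternatives and the tapetum and anther markers given in TPM.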

Additional observations from a re-analysis of the deposited data

How the results depend on the processing

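The 15 alternatives left the count of called mitotic genes at 0 and that of the other cell division genes at 0, and the smallest adjusted p of a mitotic gene was 0.273 (CYCA2;4 without replicate 2 labelled VGD1). The median log2 fold change of the mitotic genes stayed between -0.088 and 0.059, within the spread between libraries of 0.128. Of 465 fold changes of single mitotic genes under the alternatives, 51 had another sign than the reported one and 6 moved by more than their standard error. An unadjusted p under 0.05 appeared for CYCA2;1 (0.0255) and CDKB1;1 (0.0439) without replicate 1 labelled VGD1, CYCA2;4 (0.0219) without replicate 2 labelled VGD1 and TPX2 (0.0369) without control replicate 3.

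The number of genes called over all genes was 139 without the filter, 430 by DESeq2, 45 by limma-voom and 53 with the legacy dispersion, and between 4 and 202 when a library was left out. The cause was not tested. Deviations of same-numbered libraries from their group means correlated at 0.00, 0.039 and 0.102 over all tested genes, so the numbers were not taken to pair the samples. With the replicate number as a block, 194 genes were called, 0 of them mitotic (smallest adjusted p 0.506) and 2 of them vascular markers (XCP1 and IRX3, both lower in the libraries labelled VGD1), and the median log2 fold change of the mitotic genes was -0.006. Replicate 2 labelled VGD1 correlated best with control replicate 1 (0.057) and replicate 1 labelled VGD1 with control replicate 2 (0.038). Not every library thus correlated best with its own number. Replicate 3 labelled VGD1 did, at 0.102 with control replicate 3 against -0.058 and -0.086 with control replicates 1 and 2. That was the highest correlation of all pairs, so shared structure between the replicates 3 is not excluded. Low counts limit CYCA2;1 and CYCA2;2, which had 36 counts each in control replicate 3.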
